A study of Mus musculus with 6 samples.

Results

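The genes described here encode 9 proteoglycan core proteins, which are Dcn, Bgn, Lum, Fmod, Agrn, Col18a1, Cspg4, Tgfbr3 and Srgn. They were found through the RefSeq accession in each probe set's name, and 9 of the 1246 probe sets matched, 1 for each gene, out of 909 named genes in all. RNA came from cultures of MLE-15, a mouse lung epithelial line immortalised with SV40 large T antigen. One group of 3 arrays came from MLE-15 cells given PMA, and the other group of 3 came from control MLE-15 cells, which are the same line without PMA. PMA (phorbol 12-myristate 13-acetate) switches on protein kinase C, and the series text gives 10 nM for 24 h as its dose and exposure. Within each group the arrays carry the replicate numbers 1, 2 and 3. The labels do not state whether the replicates were cultured separately, so the spread behind each p-value is that of these arrays and may be technical.

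A proteoglycan is a core protein to which long, negatively charged glycosaminoglycan chains are attached, in most cases on serines through a linker that begins with xylose. The small leucine-rich proteoglycans decorin, biglycan, lumican and fibromodulin are secreted into the matrix, where they bind collagen fibrils and, in the case of decorin and biglycan, growth factors of the TGF-beta family. Agrin and collagen XVIII carry heparan sulfate and sit in basement membranes, the sheets on which lung epithelium rests. The others are a membrane chondroitin sulfate proteoglycan (Cspg4), a TGF-beta co-receptor that is made with or without chains (Tgfbr3) and a proteoglycan of secretory granules (Srgn).

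Promoter sequences for 6 of the 9 genes were in the RefSeq promoter table of mouse assembly GRCm38.p6, and Dcn, Lum and Tgfbr3 were not matched. Agrn, Col18a1 and Cspg4 are shown because they had a promoter in that table and passed the test as higher in the number 1 arrays, as described further on. For Agrn and Col18a1, which have a pair of windows each, the first in the table is printed. Each line gives the 250 bases before the annotated start, 5′ to 3′ on the gene's strand, with GC boxes in capitals. A GC box was searched as GGGCGG on both strands, so that it also appears as CCGCCC, and matches may share bases with each other. The Agrn window lies at chr4:156197489-156197738 on the minus strand, the Col18a1 window at chr10:77166531-77166780 on the minus strand and the Cspg4 window at chr9:56864854-56865103 on the plus strand.
Agrn: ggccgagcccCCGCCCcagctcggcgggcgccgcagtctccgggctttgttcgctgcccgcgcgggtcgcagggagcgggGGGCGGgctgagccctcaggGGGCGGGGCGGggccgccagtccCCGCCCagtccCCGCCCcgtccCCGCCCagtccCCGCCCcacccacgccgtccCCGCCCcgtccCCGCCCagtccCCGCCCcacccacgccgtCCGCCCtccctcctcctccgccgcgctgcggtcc
Col18a1: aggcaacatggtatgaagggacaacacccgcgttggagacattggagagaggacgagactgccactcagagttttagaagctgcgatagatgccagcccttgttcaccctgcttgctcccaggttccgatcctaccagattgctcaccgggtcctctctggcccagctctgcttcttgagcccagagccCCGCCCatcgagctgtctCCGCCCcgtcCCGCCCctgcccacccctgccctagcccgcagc
Cspg4: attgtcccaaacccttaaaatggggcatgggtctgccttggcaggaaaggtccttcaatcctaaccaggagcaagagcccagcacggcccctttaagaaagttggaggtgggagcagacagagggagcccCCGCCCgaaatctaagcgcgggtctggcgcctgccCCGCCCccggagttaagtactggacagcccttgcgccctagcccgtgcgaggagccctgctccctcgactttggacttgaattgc
The printed Agrn window held 12 GC boxes and was 83.6% G or C, the printed Col18a1 window held 3 at 62.0%, and the Cspg4 window held 2 at 60.4%. The second Agrn window held 2 at 60.8%, and the second Col18a1 window held 0 at 57.6%. The median window of the table was 52.4% G or C. A GC box occurred in 32.7% of all 32851 promoter windows of that length and in 5 of the 9 windows of these genes. The window of Bgn, whose level did not pass any test here, held 3, and the Fmod window and both Srgn windows held 0. The AP-1 motif TGANTCA, whose factors respond to phorbol esters, was in 6.75% of all windows and in 0 of the 9 windows. The E-box CACGTG (6.02% of all windows) was in 0 of the 9, and the TATA box TATAAA (12.4%) was in 1, that of Srgn. These motifs were also read on both strands. A match or its lack describes only these letters in this window.

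Values are RMA levels on the log2 scale, in which 1 unit is a 2-fold change in signal. A difference is taken only between arrays, within a probe set. Levels of unlike probe sets are set side by side only through array quartiles and medians and in the marker sums, which are rough descriptions. The table named 2 of 20 listed lung epithelial markers, and Sftpc, Nkx2-1 and Epcam had no probe set named here. Of these Sftpa1, a surfactant protein, lay below the lower quartile of every array and averaged 3.86 in number 1 and 3.34 in numbers 2 and 3, and Sftpd, another surfactant protein, averaged 5.49 in number 1 and 5.36 in numbers 2 and 3. Array medians ran from 5.64 to 5.71, lower quartiles from 4.32 to 4.43 and upper quartiles from 7.86 to 8.05. In both groups the arrays numbered 1 stood apart from those numbered 2 and 3, so each gene is given by number as well as by treatment.

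Of the core protein genes, 4 had array values near a single level and 5 did not. Those 4 (Bgn, Lum, Fmod and Srgn) lay below the median of every array, where a value may not follow the transcript. The widest span over the 6 arrays was 3.28 log2 units, in Tgfbr3, and the narrowest was 0.14, in Lum. The median span was 1.23 for the 9 genes and 0.34 for all probe sets. The following paragraphs take the genes by role.

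**Figure D1:**
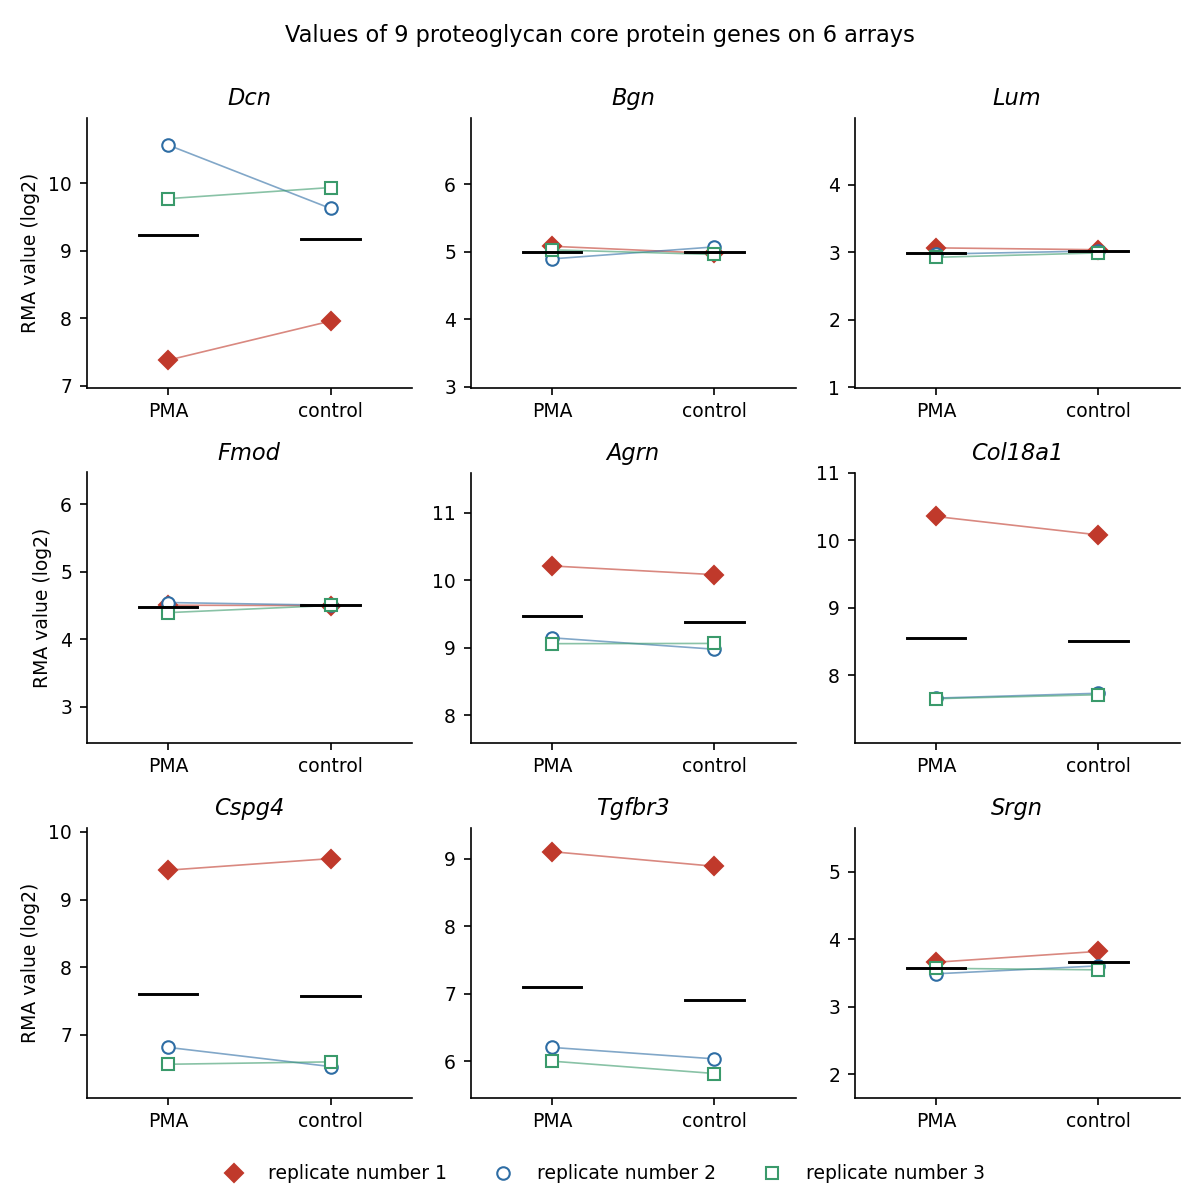
RMA value (log2) of each gene on the 3 PMA arrays (left in each panel) and the 3 control arrays (right), with lines joining arrays of the same replicate number and black bars at the group means. Every panel spans 4 log2 units. The number 1 arrays (filled diamonds) stand above the rest for Agrn, Col18a1, Cspg4 and Tgfbr3 and below it for Dcn, while the black bars of PMA and control lie close together in every panel.

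Decorin, the small leucine-rich proteoglycan that binds collagen fibrils and TGF-beta, was lower in number 1. Dcn stood at 7.38, 10.56 and 9.77 on PMA arrays 1, 2 and 3, against 7.96, 9.62 and 9.93 on control arrays 1, 2 and 3. Both number 1 arrays lay below all 4 others, as in 18.1% of all probe sets, and PMA and control arrays overlapped. Number 1 averaged 7.67 and numbers 2 and 3 averaged 9.97, a difference of -2.31 log2 units (SE 0.23; adjusted p = 1.63e-05 by limma), or 4.94-fold lower. The Dcn probe set carries the suffix s, which marks probes that can bind several transcripts.

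Dcn was also the least steady of these genes. After number 1 and PMA were fitted, its remaining SD was 0.47 log2 units, which ranked 1 of 1246 probe sets, where the median was 0.083. Among the arrays numbered 2 and 3 alone it spanned 0.94, second only to 1 other probe set. PMA array 2 was the highest, at 10.56, and control array 2 the lowest of those 4, at 9.62. The number 1 difference was -2.79 among PMA arrays and -1.82 among control arrays, so its size was uncertain while its direction was the same in both.

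The other 3 small leucine-rich genes moved little. Biglycan, which like decorin carries chondroitin or dermatan sulfate, had Bgn values of 5.08, 4.89 and 5.03 on PMA arrays 1, 2 and 3 and of 4.97, 5.07 and 4.96 on control arrays 1, 2 and 3. Fibromodulin, a keratan sulfate proteoglycan that shapes collagen fibrils, had Fmod values of 4.50, 4.54 and 4.39 on PMA arrays and of 4.50, 4.50 and 4.50 on control arrays. Lumican, its relative best known from the cornea, had Lum values of 3.06, 2.97 and 2.92 on PMA arrays and of 3.04, 3.02 and 2.99 on control arrays. Neither treatment nor number separated the arrays for Bgn or Fmod, whereas the number 1 arrays of Lum lay just above all 4 others.

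For these 3 genes the number 1 difference was 0.039 (SE 0.077) for Bgn, 0.016 (SE 0.071) for Fmod and 0.074 (SE 0.067) for Lum, and none passed the test (limma adjusted p = 0.713, 0.878 and 0.412). The 95% intervals ran from -0.13 to 0.21 for Bgn, from -0.14 to 0.17 for Fmod and from -0.074 to 0.22 for Lum. Quantile normalization of the arrays again turned the sign of all 3. Lum lay below the lower quartile on 6 of 6 arrays, and Bgn and Fmod lay between the lower quartile and the median on all 6. Since the table holds no background probes, a level this low may not follow the transcript, and these small differences are not read as steady expression. Dcn and Lum are neighbours on chromosome 10, with 0 genes listed between them in RefSeq GRCm38.p6.

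Both basement membrane genes were higher in number 1. Agrin, which clusters acetylcholine receptors at the neuromuscular junction and links laminin to cell surface dystroglycan, had Agrn values of 10.21, 9.15 and 9.06 on PMA arrays 1, 2 and 3, against 10.08, 8.98 and 9.07 on control arrays 1, 2 and 3. Both number 1 arrays lay above all 4 others, as in 37.8% of all probe sets, and the other 4 kept within 0.17 of each other. Number 1 averaged 10.15 and numbers 2 and 3 averaged 9.06, a difference of 1.08 (SE 0.069; adjusted p = 4.42e-07 by limma), or 2.12-fold. It was 1.11 among PMA arrays and 1.06 among control arrays.

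Collagen XVIII, whose C-terminal fragment endostatin inhibits blood vessel growth, followed the same order with a wider gap. Col18a1 stood at 10.35, 7.66 and 7.65 on PMA arrays 1, 2 and 3, against 10.08, 7.73 and 7.71 on control arrays 1, 2 and 3. The 4 arrays of numbers 2 and 3 spanned 0.080, the smallest such span among the 5 genes that differed with the number. Number 1 averaged 10.21 and numbers 2 and 3 averaged 7.69, a difference of 2.52 (SE 0.084; adjusted p = 3.32e-09 by limma), or 5.75-fold. RefSeq gives Col18a1 more than 1 start, and which of its transcripts the probe set detects was not analysed here.

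The membrane proteoglycans differed most. Cspg4, a chondroitin sulfate proteoglycan that spans the membrane and marks pericytes and oligodendrocyte precursors, stood at 9.43, 6.81 and 6.56 on PMA arrays 1, 2 and 3, against 9.61, 6.53 and 6.60 on control arrays 1, 2 and 3. Both number 1 arrays lay far above every other array. Number 1 averaged 9.52 and numbers 2 and 3 averaged 6.62, a difference of 2.90 (SE 0.094; adjusted p = 3.09e-09 by limma), or 7.44-fold.

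Tgfbr3 encodes betaglycan, which binds TGF-beta ligands and presents them to the type II receptor, and which is made with or without glycosaminoglycan chains. It stood at 9.10, 6.21 and 6.003 on PMA arrays 1, 2 and 3, against 8.89, 6.04 and 5.82 on control arrays 1, 2 and 3. The number 1 arrays were again far above the rest in both groups. Number 1 averaged 8.996 and numbers 2 and 3 averaged 6.02, a difference of 2.98 (SE 0.087; adjusted p = 1.80e-09 by limma), or 7.89-fold. It was 3.00 among PMA arrays and 2.96 among control arrays, and it ranked 10 of 1246 by absolute size.

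Serglycin, which packs proteases and other cargo in the granules of blood cells, differed far less. Srgn stood at 3.66, 3.49 and 3.57 on PMA arrays 1, 2 and 3, against 3.82, 3.60 and 3.55 on control arrays 1, 2 and 3. The number 1 arrays lay above all 4 others, and all 6 arrays lay below their lower quartile. Number 1 averaged 3.74 and numbers 2 and 3 averaged 3.55, a difference of 0.19 (SE 0.070) that did not pass (adjusted p = 0.0538 by limma). The adjusted p was 0.0281 by limma when the prior variance followed a trend on the mean. After repeated quantile normalization the difference was 0.077 (limma adjusted p = 0.402), and after median centring it was 0.15 (limma adjusted p = 0.138).

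In the comparison of number 1 with numbers 2 and 3, limma with PMA as a term called 27.5% of all probe sets higher and 14.1% lower after Benjamini-Hochberg adjustment. Of the 9 core protein genes, 4 passed as higher (Agrn, Col18a1, Cspg4 and Tgfbr3), 1 as lower (Dcn), and 4 did not pass. Both number 1 arrays lay above all 4 others for 6 of the 9 genes, against 37.8% of all probe sets, and below them for 1, against 18.1%. Counting either direction, 5 of the 9 were called against a background of 41.7%, so the count alone does not set them apart. Their differences were wider than most, with 5 of 9 over 1 log2 unit in size against 9.23% of all probe sets, and 4 of 9 over 2 units against 3.13%. The 9 genes and the related lists further on were chosen with earlier results of these data known. Such widths therefore describe the genes and give no test of them as a group. The median absolute difference was 1.08 for the 9 genes and 0.17 for all probe sets, and the median signed difference was 0.19 for the 9 genes and 0.079 for all probe sets. The number stands for 1 pair of arrays against 2 pairs, so these values compare these arrays only. Fewer cells of a type and less RNA per cell cannot be told apart in these values. In both groups the short sample names of numbers 2 and 3 close with a letter (A or B), which number 1 lacks. The split by number thus coincides with a difference in naming. Whether number 1 was also grown or processed in a separate batch is not given, and a batch difference was not tested.

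**Figure D2:**
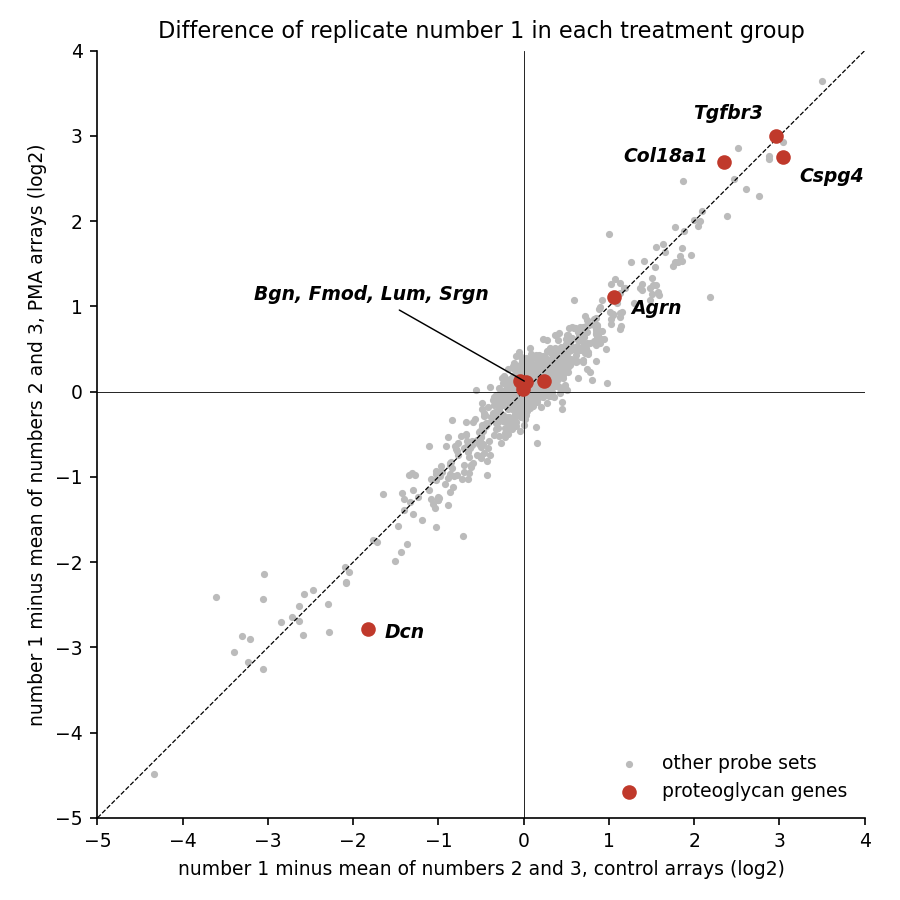
Each point is a probe set, with the level in number 1 minus the mean of numbers 2 and 3 (log2) in PMA arrays on the vertical axis and in control arrays on the horizontal axis; the dashed line marks equal values. The 9 proteoglycan genes are red. Tgfbr3, Cspg4, Col18a1 and Agrn lie near the line, and Dcn lies below it, at -2.79 in PMA arrays and -1.82 in control arrays.

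The study asked which genes PMA induces, and no call was made for any of the 9 genes. By limma without a block 0 of the 9 passed, against a background of 0% of 1246 probe sets, with 0 of the 9 at an unadjusted p under 0.05 (0.321% of all probe sets). In the fit blocked on the replicate number, limma called 0 of 9, again against 0%, and 1 of 9, Tgfbr3, had an unadjusted p under 0.05 (3.37% of all probe sets). PMA and control arrays overlapped for all 9 genes, while 3.37% of all probe sets had no overlap. The mean was higher in PMA arrays for 5 genes, against 52.2% of all probe sets, and lower for 4, with a median difference of 0.026 for the 9 genes and 0.0033 for all probe sets.

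Tgfbr3 had the largest difference. It averaged 7.10 ± 1.73 in PMA arrays and 6.91 ± 1.71 in control arrays (SD, n = 3 each), and each PMA array was above the control array of its number, by 0.22, 0.17 and 0.18 for numbers 1, 2 and 3. In the blocked fit the difference was 0.19 (SE 0.064), or 1.14-fold, and it did not pass the adjustment (limma adjusted p = 0.992). All 3 pairs had one sign in 23.1% of probe sets, so that pattern by itself is common.

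For the other genes the pairs disagreed or were small. Dcn averaged 9.24 ± 1.66 in PMA arrays and 9.17 ± 1.06 in control arrays (SD, n = 3 each), and its pairs gave -0.58, 0.94 and -0.16 for numbers 1, 2 and 3. Agrn averaged 9.47 ± 0.64 in PMA arrays and 9.38 ± 0.61 in control arrays (SD, n = 3 each), with pairs of 0.13, 0.17 and -0.0035. Col18a1 averaged 8.55 ± 1.55 in PMA arrays and 8.51 ± 1.36 in control arrays (SD, n = 3 each), with pairs of 0.27, -0.072 and -0.058.

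Cspg4 averaged 7.60 ± 1.59 in PMA arrays and 7.58 ± 1.76 in control arrays (SD, n = 3 each), with pairs of -0.17, 0.28 and -0.036. Srgn averaged 3.57 ± 0.086 in PMA arrays and 3.66 ± 0.14 in control arrays (SD, n = 3 each), with pairs of -0.16, -0.12 and 0.023. Bgn, Lum and Fmod differed by -0.00080, -0.028 and -0.020 between the PMA and control means. None of these differences passed in either fit.

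How large a PMA difference these arrays could have held depends on the fit. With the block, the 95% interval of all 9 genes lay within 1 log2 unit of 0, as it did for 100% of probe sets. The widest was that of Dcn, from -0.45 to 0.58, and those of Cspg4 and Col18a1 ran from -0.18 to 0.23 and from -0.14 to 0.24. Without the block 4 of 9 intervals lay within 1 unit, against 88.6% of all probe sets, and that of Tgfbr3 ran from -2.82 to 3.20.

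**Figure D3:**
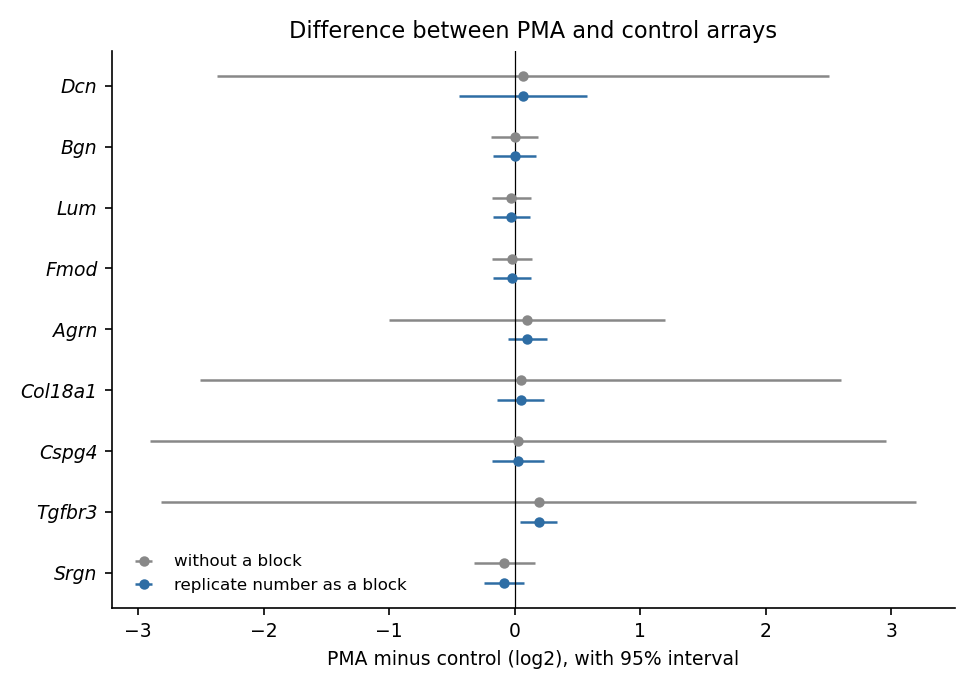
PMA minus control (log2) for each gene with its 95% interval, from the fit without a block (grey) and with the replicate number as a block (blue). With the block the intervals are narrow and all but that of Tgfbr3 (0.044 to 0.33) cover 0; that interval is not adjusted for the number of probe sets.

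Split into shares of the sum of squares over the 6 arrays, number 1 against the rest held 99.5% for Col18a1, 99.4% for Cspg4, 99.2% for Tgfbr3, 98.6% for Agrn and 91.2% for Dcn. PMA held 0.45% for Tgfbr3 and 0.91% for Agrn, and 0.082% for Dcn. For Bgn and Fmod 92.0% and 92.6% lay in neither. Srgn gave PMA its largest share, 16.2%, of a small total.

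**Figure D4:**
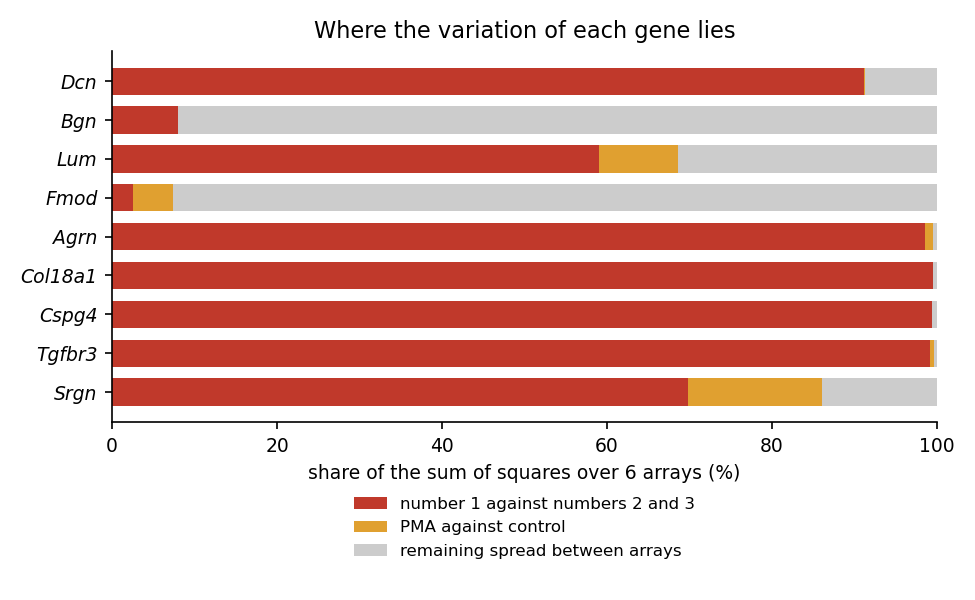
Share of each gene's sum of squares over the 6 arrays (%) that lies between number 1 and numbers 2 and 3 (red), between PMA and control (yellow), and in the remaining spread (grey). Red fills 91.2% or more of the bars of Dcn, Agrn, Col18a1, Cspg4 and Tgfbr3, while grey fills 92.0% of Bgn and 92.6% of Fmod.

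Whether the PMA difference depended on the number was tested as an interaction. By limma 1 of 1246 probe sets (0.0803%), which has no gene name here, passed, and 0 of the 9 genes did, with 2 of them at an unadjusted p under 0.05 (5.62% of all probe sets). For Dcn the PMA difference in number 1 minus that in numbers 2 and 3 was -0.97 (SE 0.41; adjusted p = 0.743). It passed in fits without PMA array 3 (-1.36, adjusted p = 0.000856) and without control array 3 (-1.12, adjusted p = 0.00903), and not without PMA array 2 (-0.57, adjusted p = 0.328) or control array 2 (-0.81, adjusted p = 0.182), so single arrays decide it. For Col18a1 the value was 0.34 (SE 0.12; adjusted p = 0.743).

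The likeness of patterns was measured as the root mean square distance between values centred on each gene's own mean over the 6 arrays, a description of 6 arrays in which number 1 stands apart. Among the core protein genes that differed with the number, Cspg4 and Tgfbr3 were closest, at 0.15 log2 units. Out of 900 other named genes, the same 3 came closest to both of them. These were St6galnac2, a sialyltransferase of O-glycans (0.069 from Cspg4 and 0.16 from Tgfbr3), Wnt10a, a Wnt ligand (0.10 and 0.21), and Il17rd, a receptor of the interleukin-17 receptor family (0.12 and 0.16).

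Agrn came closest to another proteoglycan, the syndecan Sdc4, at 0.047, then to Wnt4 at 0.077 and to the chondroitin sulfate proteoglycan versican, Vcan, at 0.084. Col18a1 came closest to Slc35f3 at 0.099, to the collagen receptor Mrc2 at 0.14 and to the cytokine gene Csf2 at 0.18. Dcn came closest to the lysosomal enzyme gene Aga at 0.27, to Igfbp5, which binds insulin-like growth factors, at 0.28, and to the activin antagonist Fst at 0.31. For the 4 genes with little spread, both patterns compared were nearly flat, with Prg2 among the 3 closest to Lum (0.027) and the chondroitin sulfotransferase Chst3 the closest to Srgn (0.022).

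Related genes were counted in the same fits, in which 27.5% of all probe sets were called higher and 14.1% lower in number 1, or 41.7% in either direction. Of 33 other proteoglycan core proteins listed, 26 were measured. In number 1, 9 were higher and 1 lower, and 16 did not pass, with a median difference of 0.092, near the 0.079 of all probe sets. Acan, the cartilage proteoglycan aggrecan, averaged 6.40 in number 1 and 8.97 in numbers 2 and 3, a difference of -2.57 (SE 0.079), so 1 matrix proteoglycan outside the 9 fell as Dcn did. Vcan rose by 1.15 (SE 0.091). With PMA 0 of the 26 passed by limma, with 18 means higher and 8 lower and a median difference of 0.019, against 0.0033 over all probe sets, and the largest difference was that of the hyaluronan receptor Cd44, at 0.23. None of 13 other small leucine-rich genes had a probe set named here, and of 25 basement membrane components 1 did, the agrin receptor dystroglycan, Dag1, at 0.27 for number 1 (adjusted p = 0.0530 by limma) and -0.16 for PMA.

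The TGF-beta and BMP list, in which Tgfbr3 acts, had 20 of 33 genes measured. In number 1, 10 were higher, 6 lower and 4 did not pass (median 0.19), so that 80% were called against the 41.7% of all probe sets. Fst fell by 2.39 log2 units, to a mean of 6.33 in number 1 against 8.72 in numbers 2 and 3, and Bmp1, a protease that trims procollagens and the propeptide of biglycan, rose by 1.35 (SE 0.079). With PMA 0 of 20 passed by limma, with 12 means higher and 8 lower and a median of 0.050, led by the type I receptor genes Tgfbr1 at 0.19 and Bmpr1a at 0.17.

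The enzymes that build the chains were taken in 3 lists. Of 16 genes for chondroitin and dermatan sulfate, 13 were measured, and in number 1, 10 were higher, 2 lower and 1 did not pass (median 0.54), so that 92.3% were called against the 41.7% of all probe sets. The uronyl 2-O-sulfotransferase Ust rose by 1.71 (SE 0.089), and the chondroitin polymerase gene Chsy3 fell by 1.53 log2 units. Of 25 heparan sulfate genes, 24 were measured, with 10 higher, 3 lower and 11 that did not pass (median 0.15), and the 54.2% called lay nearer to that background. The polymerase gene Ext1 rose by 2.01 (SE 0.066), and the 3-O-sulfotransferase gene Hs3st1 fell by 1.11. Of 13 genes for the linker and its precursors, 10 were measured, with 0 higher, 4 lower and 6 that did not pass (median 0.018), and the 40% called lay close to it. The nucleotide sugar transporter gene Slc35d1 fell by 1.14, and Slc35b1, a nucleotide transporter of the endoplasmic reticulum, fell by 0.65.

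With PMA 0 genes of these 3 enzyme lists passed by limma with or without the block. At an unadjusted p under 0.05 in the blocked fit there were 3 of the chondroitin list, 0 of the heparan sulfate list and 2 of the linker list, where 42 of all 1246 probe sets (3.37%) had one. The median PMA difference was -0.0092 for the chondroitin list (6 higher, 7 lower), 0.014 for the heparan sulfate list (12 higher, 12 lower) and -0.065 for the linker list (4 higher, 6 lower). The largest PMA differences were 0.21 for Csgalnact1 and 0.20 for Chsy3 in the chondroitin list, -0.16 for Hs3st1 and 0.12 for Hs3st3a1 in the heparan sulfate list, and 0.19 for B3gat2 and -0.17 for Slc35b1 in the linker list. B3gat2 lay below the lower quartile of every array, where a value may not follow the transcript.

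**Figure D5:**
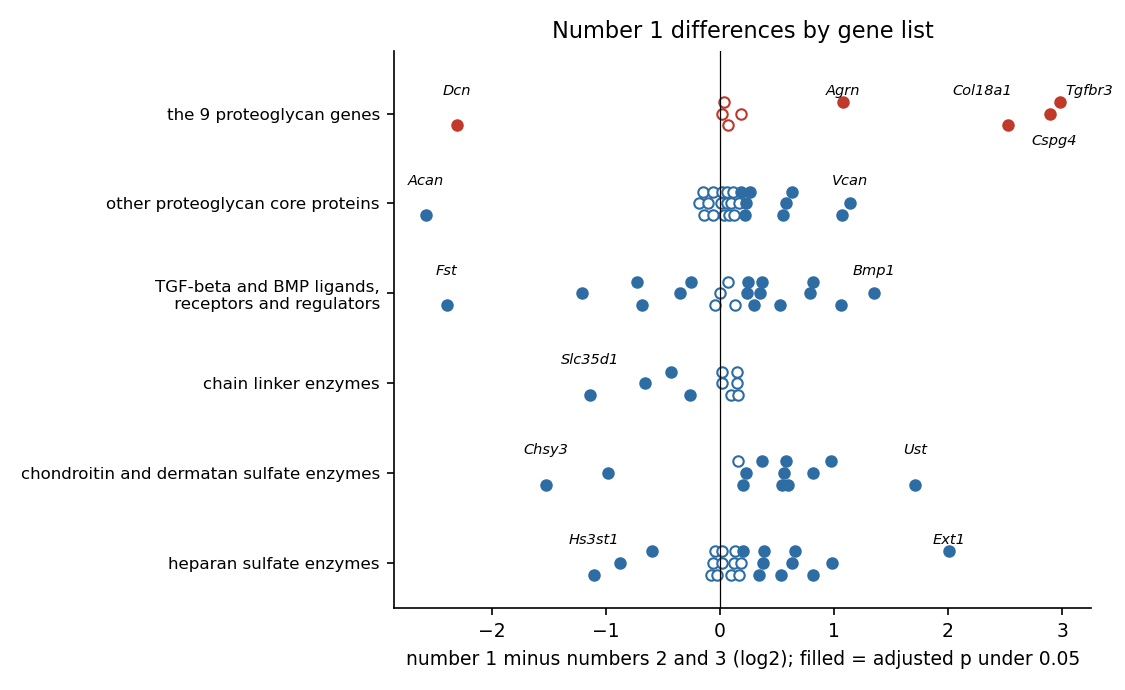
Number 1 minus numbers 2 and 3 (log2) for the 9 proteoglycan genes (red, top row) and for 5 related lists (blue); each point is a gene and filled points passed the adjusted threshold of 0.05. Points of a row are offset vertically only to separate them. Cspg4, Tgfbr3 and Col18a1 lie to the right of every gene of the other lists, and Acan and Fst lie to the left of Dcn.

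Markers of other cells were read beside these differences, in a fit that called 41.7% of all probe sets in either direction. Of 17 fibroblast and pericyte markers 3 were measured, and their summed level (log2 of the sum of linear values) ran from 7.51 to 7.72 in number 1 and from 7.05 to 7.32 in numbers 2 and 3. Pdgfrb, a receptor that like Cspg4 marks pericytes, rose by 0.78 (SE 0.087) in number 1, and Mcam, a surface marker of pericytes and endothelium, by 0.31 (SE 0.10), while Pdgfra, named after its value was seen, did not pass at 0.20. The Pdgfra level lay below the lower quartile of every array. Of 24 leukocyte markers 8 were measured, with a sum of 7.97 to 8.14 in number 1 against 9.49 to 9.54 in numbers 2 and 3. In that list 2 passed, both lower, so 25% were called. The chemokine receptor gene Ccr7 fell by 3.22, and the mannose receptor gene Mrc1 fell by 2.74. The other 6 differed by -0.090 to 0.16 and did not pass, so the lower sum reflects those 2 genes. Of 14 endothelial markers 7 were measured, with a sum of 9.19 to 9.33 in number 1 against 10.05 to 10.57 in numbers 2 and 3. Of these, 1 gene was higher, 3 were lower and 3 did not pass, so 57.1% were called. Pecam1 fell by 1.37 and Vcam1 fell by 1.31. Vcam1 alone averaged 8.69 in number 1 and 10.00 in numbers 2 and 3, so most of that sum is its signal. Of the 2 lung epithelial markers Sftpa1 passed as higher in number 1, by 0.52 (SE 0.069; adjusted p = 0.000117 by limma), or 1.43-fold, and Sftpd did not pass. They summed to 5.87 to 5.91 in number 1 and to 5.61 to 5.79 in numbers 2 and 3. No array scale has a true 0. All arrays are labelled as the MLE-15 line, so a marker named here may be expressed by that line itself. Whether other cells had a part in the number 1 differences was not tested.

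By treatment all 4 sums overlapped, and 0 genes of the 4 marker lists passed by limma with or without the block; the range was 7.09 to 7.51 in PMA arrays and 7.05 to 7.72 in control arrays for fibroblast and pericyte markers. The largest PMA differences were 0.38 for Mrc1 and -0.15 for Siglech among leukocyte markers, -0.22 for Pdgfrb and 0.13 for Mcam among fibroblast and pericyte markers, 0.13 for Vcam1 and 0.073 for Emcn among endothelial markers, and -0.042 for Sftpd and -0.032 for Sftpa1 among epithelial ones. Of these, Mrc1, Siglech and Pdgfrb had an unadjusted p under 0.05 in the blocked fit (limma; 0.0114, 0.0474 and 0.0298), as did 3.37% of all probe sets. Siglech and Sftpa1 lay below the lower quartile on 6 of 6 arrays and Emcn on 5, where a value may not follow the transcript. Of 27 phorbol ester response genes 10 were measured, and with PMA 0 passed by limma, with 4 means higher and 6 lower. The PMA arrays hold a single exposure, 24 h, so a response at an earlier time was not measured. The chemokine gene Cxcl1 differed by 0.21 and the transcription factor gene Junb by -0.16. In number 1, 1 gene of that list was higher and 6 were lower, so 70% were called, against 41.7% of all probe sets. The largest falls were those of Ccl20 and Cxcl2, by 3.09 and 3.06. As for Dcn, the probe sets of Ust, Hs3st1, Hs3st3a1 and Ccl20 carry the suffix s, and that of Siglech carries x, for probes that may cross-hybridise.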

How the data were processed

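The deposited values are log2 probe set levels made by the authors with RMA, per the submitters' processing notes; RMA corrects background, quantile-normalizes arrays and summarises probes. The RMA version, the array and its annotation were not given in the sources used here. Per the labels' protocols, biotinylated cRNA was made from 0.5 µg of Trizol-extracted RNA. Values were used as deposited. The number of arrays limits the precision.

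Of 1246 probe sets, 963 were named by RefSeq accession, matched without versions to RefSeq GRCm38.p6, covering 909 genes, and 283 stayed unnamed. A gene with more than 1 probe set was represented by that of highest mean. PMA minus control (no covariate), number 1 minus numbers 2 and 3 (PMA as a covariate) and their interaction were fitted over all probe sets with limma 3.58.1 (R 4.3.3; moderated by eBayes, whose standard error is the SE given), with Benjamini-Hochberg adjustment and a threshold of 0.05. The procedure was tested on simulated data.

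Arrays with the same number were checked for pairing by correlating, across probe sets, their deviations from the group means. The values were 0.956, 0.815 and 0.912, all over 0.1, so numbers were treated as pairs in the blocked fit. Arrays of unlike number correlated as well (0.886 for PMA 3 with control 2 and 0.838 for PMA 2 with control 3), and numbers 2 and 3 alone gave 0.041, so the check does not show that those 2 numbers pair arrays.

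The 9 genes and the related lists were chosen with earlier results of these data known. The rule named all 9 and allowed the 3 genes of most alike pattern and, in each list, those with the 2 largest differences by number and by PMA. Alternatives were repeated quantile normalization, median centring, a filter on dim probe sets, a variance trend, averaging of probe sets, the block, a term for number 1, no covariate, within-group values and left-out arrays. The alternatives of the interaction were added after seeing the data.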

Additional observations from a re-analysis of the deposited data

How the results depend on the processing

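The 5 genes called by number passed in every alternative run, with 5 to 6 of the 9 called, and left-out arrays gave 403 to 543 calls over all probe sets against 519. For PMA 0 calls were made in every alternative, the replicate block and the term for number 1 included, so the block changed no call. With single arrays or number pairs left out, uncalled PMA differences changed sign, from -0.60 to 1.00 for Dcn, -0.054 to 0.088 for Bgn, -0.067 to 0.0030 for Lum, -0.052 to 0.023 for Fmod, -0.27 to 0.45 for Agrn, -0.85 to 0.83 for Col18a1, -0.89 to 1.04 for Cspg4 and -0.81 to 1.18 for Tgfbr3. Leaving out 1 array unbalances the numbers between the groups. With whole number pairs left out, the sign changed for Dcn, Bgn, Fmod, Col18a1 and Cspg4. It held for Tgfbr3 (0.18 to 0.20), Agrn (0.063 to 0.15) and Lum (-0.056 to -0.0097). For number 1, left-out arrays gave -0.041 to 0.12 for Bgn and -0.019 to 0.045 for Fmod. Repeated quantile normalization gave -0.010 for Bgn, -0.016 for Lum and -0.054 for Fmod, and median centring gave -0.00010 for Bgn and -0.024 for Fmod; the cause was not tested. The interaction called 0 probe sets after repeated quantile normalization and 2 to 18 with an array left out, with 0 to 1 of the 9 genes (Dcn). There, Fmod ranged from -0.036 to 0.11 and Tgfbr3 from -0.068 to 0.15 with an array left out, and Fmod was -0.0039 after quantile normalization. With the dim probe sets removed, 7 of the 9 genes were left. Signal over background is unknown, which limits Lum, Srgn, Fmod and Bgn most.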
